A study of Homo sapiens with 18 samples.

Results

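The miRNAs described here are the relatives of miR-28 by seed or by origin: miR-28-5p, miR-28-3p, miR-151a-5p, miR-151a-3p and miR-708-5p. The tables list them as HSA-MIR-28-5P, HSA-MIR-28-3P, HSA-MIR-151A-5P, HSA-MIR-151A-3P and HSA-MIR-708-5P. LPP and PTK2, the genes that carry the miR-28 and miR-151a hairpins, were taken with them. These are 5 of the 2167 mature miRNAs and 2 of the 38055 genes in the deposited values, 7 members in all, named by relation to miR-28 and not by a threshold on their values. HCT116 cells, a human colorectal carcinoma line of epithelial type labelled wild type, were grown for 3 days to 50% confluency, for 5 days to 250% and for 7 days to 400%, where values above 100% stand for stacked layers of cells. No cells were treated or edited in these groups, and day and confluency cannot be told apart because they rise together. RNA came from whole cells, with 3 libraries labelled as biological replicates per day. Small RNA was analysed on all 3 days in 9 libraries, and the whole transcriptome on days 3 and 5 in 6 libraries. Whole transcriptome values of day 7 were not analysed here.

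MicroRNAs are cut as hairpins from longer transcripts, and each hairpin can give a mature strand from its 5′ arm (5p) and one from its 3′ arm (3p). Bases 2 to 8 of the mature strand, the seed, pair with matching sites in the 3′ untranslated region (3′UTR) of mRNAs, which are then repressed through Argonaute proteins. Many hairpins lie in introns, so that host mRNA and miRNA start as one transcript. LPP encodes a zyxin-family LIM protein of focal adhesions and cell contacts. PTK2 encodes focal adhesion kinase (FAK), which relays signals from integrins.

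In GENCODE release 44 on GRCh38, the MIR28 hairpin lies at chr3:188688781-188688866 on the plus strand, in intron 7 of 11 of LPP (chr3:188153284-188890671, plus strand), outside its exons. That intron is 98422 bases long. MIR708 lies at chr11:79402022-79402109 on the minus strand, in intron 1 of 33 of TENM4, a gene for a teneurin membrane protein. Both hairpins are on the strand of their host.

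RefSeq (GRCh38.p14) gave the mature sequence of 4 of the 8 miRNAs named here, which are shown so that their seeds can be compared. They are written 5′ to 3′ with the seed, bases 2 to 8, in capitals. The entries missed were miR-28-5p, miR-151a-5p, miR-151a-3p and miR-151b.
miR-28-3p, chr3:188688834-188688855, plus strand: cACUAGAUugugagcuccugga
miR-708-5p, chr11:79402077-79402099, minus strand: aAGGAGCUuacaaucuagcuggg
miR-708-3p, chr11:79402032-79402053, minus strand: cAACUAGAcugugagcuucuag
miR-3139, chr4:143343469-143343491, plus strand: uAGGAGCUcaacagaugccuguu
miR-708-5p and miR-3139 shared the whole seed, and among 2370 mature human miRNAs in that table no other entry had it. The seeds of miR-28-3p and miR-708-3p differed from each other and from every other entry. Outside the seed, miR-28-3p (bases 9 to 16) and miR-708-3p (bases 10 to 17) shared a run of 8 bases. As background, miR-28-5p is usually placed in one seed family with miR-708-5p.

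miR-28-5p rose 2-fold on the deposited log2 scale between days 3 and 7. Its log2 value was 10.20, 10.28 and 9.84 in day 3 replicates 1 to 3, 10.46, 10.52 and 10.46 on day 5, and 11.07, 11.11 and 11.11 on day 7. All day 5 libraries lay above all day 3 libraries, and all day 7 libraries above both. Means were 10.11 ± 0.23 (SD, n = 3), 10.48 ± 0.04 and 11.10 ± 0.02 in order of day. The day 7 value was higher than that of day 3 by 0.99 (SE 0.13, limma, adjusted p = 0.000611) and higher than that of day 5 by 0.62 (adjusted p = 0.00235). The step from day 3 to day 5 was 0.37 (95% interval 0.07 to 0.67) and missed the threshold (adjusted p = 0.103).

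miR-28-3p, the more abundant strand of the same hairpin, rose by a similar amount. Its log2 values were 12.86, 12.94 and 12.36 on day 3, 12.89, 13.06 and 12.95 on day 5, and 13.77, 13.84 and 13.75 on day 7. Days 3 and 5 overlapped, while the day 7 libraries were above all others. Between days 3 and 7 the difference was 1.07 (SE 0.16, adjusted p = 0.000907), between days 5 and 7 it was 0.82 (adjusted p = 0.00189), and between days 3 and 5 it was 0.25 (−0.12 to 0.62, adjusted p = 0.351). The mean levels of miR-28-3p were 12.72 ± 0.31, 12.97 ± 0.09 and 13.78 ± 0.05 on the 3 days.

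The MIR151A hairpin lies at chr8:140732564-140732653 on the minus strand, in intron 25 of 35 of PTK2 (chr8:140657900-141002216, minus strand), an intron of 17541 bases. miR-151a-5p, at rank 14 to 17 of each library, was higher on day 7 than on both other days, whereas its lower mean on day 5 did not pass the test. The log2 values were 14.93, 14.99 and 14.58 on day 3, 14.64, 14.74 and 14.71 on day 5, and 15.31, 15.41 and 15.39 on day 7. The day 5 libraries lay within the range of day 3, and day 7 lay above both. Against day 3 the difference was −0.14 on day 5 (−0.44 to 0.16, adjusted p = 0.532) and 0.54 on day 7 (SE 0.13, adjusted p = 0.00894). From day 5 to day 7 it was 0.68 (adjusted p = 0.00158).

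miR-151a-3p, the other strand, was at rank 19 to 21 in every library. It had log2 values of 14.31, 14.39 and 13.96 on day 3, 14.23, 14.43 and 14.29 on day 5, and 14.83, 14.92 and 14.86 on day 7. As for the 5p strand, days 3 and 5 overlapped and day 7 was above both. The difference was 0.10 on day 5 (−0.22 to 0.41, adjusted p = 0.696) and 0.65 on day 7 (SE 0.13, adjusted p = 0.00414), each against day 3, and 0.55 between days 5 and 7 (adjusted p = 0.00540). For miR-28 and miR-151a alike, day 3 replicate 3 was the lowest of the day 3 libraries.

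miR-708-5p, the seed relative of miR-28-5p, was far below the other 4 miRNAs. Its log2 values were −1.70, −1.68 and −2.20 on day 3, −1.73, −2.19 and −2.19 on day 5, and −2.18, −2.16 and −2.19 on day 7. These lay near the floor of the transformed values. It did not pass the filter on low values, so it was left out of the main fits and no direction is read from it. In limma with no filter it did not pass on day 7 or day 5 against day 3 (adjusted p = 0.338 and 0.842). Nor did it between days 5 and 7 (adjusted p = 0.811). Of the 2167 miRNAs, 619 (28.6%) had a lower mean. The other strand, miR-708-3p, was at log2 values between 2.34 and 3.23 in the 9 libraries, with overlap between all days. miR-3139, which shares the miR-708-5p seed, lay between 0.16 and 1.98, also with overlap.

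**Figure D1:**
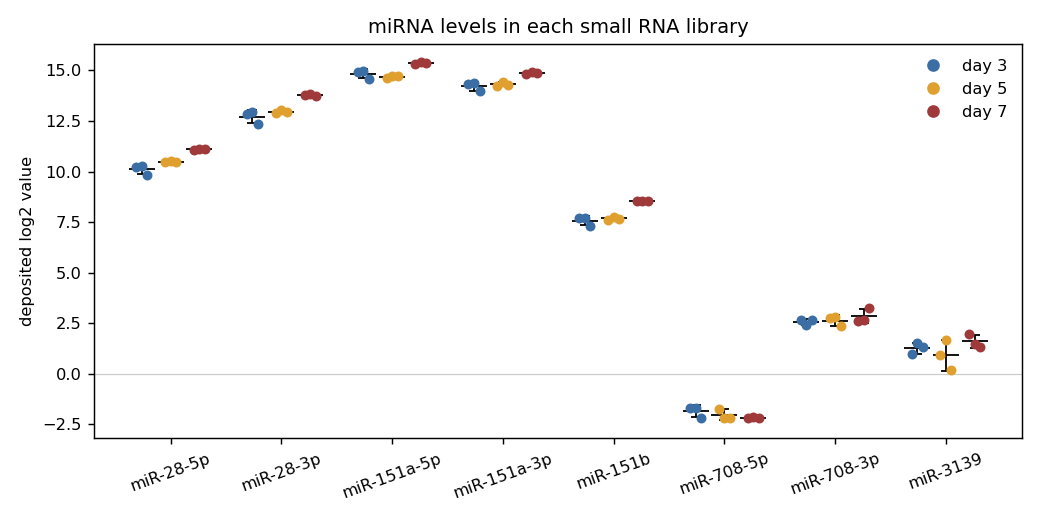
Deposited log2 value (y axis) of each miRNA (x axis) in the 9 small RNA libraries; points are libraries coloured by day, and black marks are the mean ± SD (n = 3). miR-28 and miR-151a lie above 9.8 in every library and are highest on day 7, while miR-708-5p lies between −2.20 and −1.68.

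These 3 comparisons share libraries and are therefore given side by side and not as independent results. They also have a high background. Of 559 miRNAs tested between days 3 and 7, 53.7% passed the threshold, and 45.3% were higher on day 7. The corresponding shares were 14.8% and 8.53% of 539 for day 5 against day 3, and 44.3% and 39.3% of 567 for day 7 against day 5. Groups without overlap and with the later day higher made up 55.8%, 22.6% and 53.3% of the miRNAs in the same order. The median log2 fold change of all miRNAs tested was 0.30 (quartiles 0.04 and 0.64) for day 7 against day 3, 0.07 for day 5 against day 3 and 0.26 for day 7 against day 5. Against this background miR-28-3p ranked 28 and miR-28-5p ranked 44 from the highest of 559 between days 3 and 7, whereas miR-151a-3p ranked 136 and miR-151a-5p ranked 178.

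The scale between libraries mattered for miR-151a. Back-transformed, the deposited values summed to 1542087 to 1947371 per day 3 library, to 1712225 to 1884026 on day 5, and to 2452607 to 2600754 on day 7. When each library was divided by that total, the median change of all miRNAs between days 3 and 7 went from 0.30 to −0.20. On library totals miR-28-5p still rose, by 0.49 (adjusted p = 0.00140), and miR-28-3p by 0.56 (adjusted p = 0.00258), a direction that 16.6% of the miRNAs tested had with a call. miR-151a-5p then differed by 0.04 (−0.10 to 0.18, adjusted p = 0.567) and miR-151a-3p by 0.15 (0.01 to 0.29, adjusted p = 0.0677). With libraries centred on the median of 455 well-expressed miRNAs, the day 7 differences were 0.85, 0.92, 0.40 and 0.51 for miR-28-5p, miR-28-3p, miR-151a-5p and miR-151a-3p, and each passed, as 38.1% of all miRNAs did with a rise. On day 5, miR-28-5p passed against day 3 on library totals (0.36, adjusted p = 0.00956) and with centring (0.42, adjusted p = 0.0153), against 13.4% and 15.2% of all miRNAs called higher. Between days 5 and 7 on library totals, miR-28-3p (0.32, adjusted p = 0.00659) and miR-151a-5p (0.19, adjusted p = 0.0143) passed, whereas miR-28-5p (0.13, adjusted p = 0.0636) and miR-151a-3p (0.06, adjusted p = 0.317) did not, where 10.6% of all miRNAs were called higher.

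**Figure D2:**
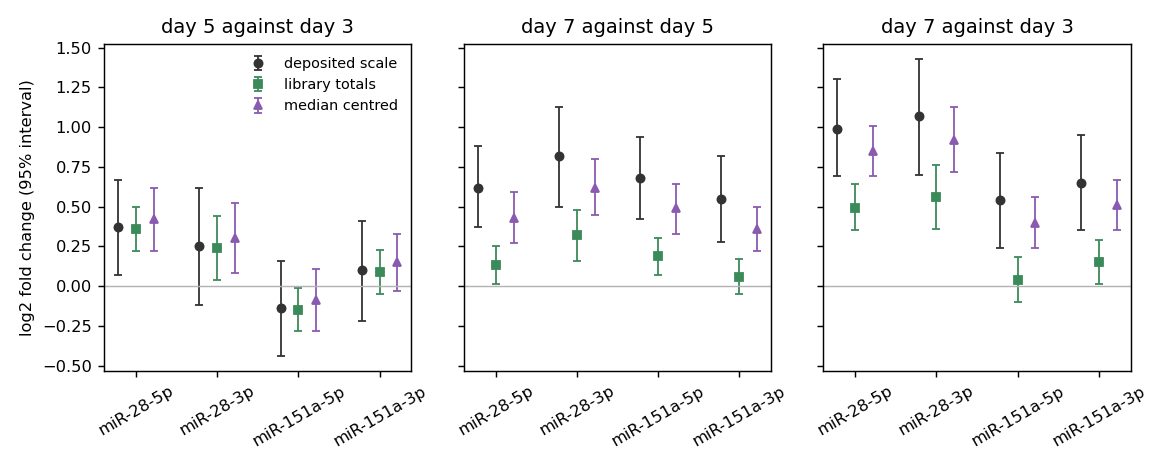
Log2 fold change (y axis) with its 95% interval for the 4 abundant miRNAs (x axis) in each comparison, on the deposited scale (circles), on library totals (squares) and after median centring (triangles). Between days 3 and 7, miR-28 lies above 0 on all 3 scales, while miR-151a-5p is at 0.54 on the deposited scale and at 0.04 on library totals.

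As a share of the miRNA total of its library, miR-28-5p made up 0.0621% ± 0.00225 (SD, n = 3) at first, then 0.0799% ± 0.00197 on day 5 and 0.0873% ± 0.00191 by day 7. The share of miR-28-3p went from 0.381% ± 0.0345 through 0.449% ± 0.00544 to 0.561% ± 0.00872. The day 7 share was 1.41 times that of day 3 for miR-28-5p and 1.47 times for miR-28-3p. For both strands no day 5 or day 7 library overlapped day 3. The same held for miR-151a-3p, and for the lower share of miR-151a-5p on day 5. How many of all miRNAs had shares without overlap was not counted. miR-151a-5p held 1.64% ± 0.0524, 1.48% ± 0.0320 and 1.69% ± 0.0343, so that its share was lowest on day 5 and its day 7 libraries overlapped those of day 3 (exact permutation p = 0.4). miR-151a-3p held 1.08% ± 0.0353, 1.14% ± 0.0273 and 1.19% ± 0.00429. All other shares differed from day 3 with p = 0.1 in the two-sided exact permutation test, the smallest that 3 libraries against 3 can give. Together the 5 miRNAs accounted for 3.16% ± 0.124 of the total on day 3, 3.16% ± 0.0159 on day 5 and 3.53% ± 0.0273 on day 7.

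A difference between 2 miRNAs inside one library does not depend on the scale between libraries. The difference in log2 value of miR-28-5p from miR-151a-5p was −4.73, −4.72 and −4.73 on day 3, −4.18, −4.21 and −4.25 on day 5, and −4.24, −4.30 and −4.28 on day 7. miR-28-5p thus gained on miR-151a-5p by 0.51, or 1.42-fold, on day 5 and by 0.45, or 1.37-fold, on day 7, with no overlap with day 3. Days 5 and 7 overlapped (−0.06, exact permutation p = 0.2). Of the other miRNAs tested, 43.3% also gained on miR-151a-5p without overlap on day 5 and 17.2% on day 7.

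The 3p strands gave a gain on both later days. miR-28-3p lay −1.46, −1.45 and −1.60 from miR-151a-3p on day 3, −1.34, −1.37 and −1.34 on day 5, and −1.06, −1.08 and −1.11 on day 7. No days overlapped: the gain was 0.15 (1.11-fold) on day 5 and 0.42 (1.33-fold) on day 7, each against day 3, and 0.26 from day 5 to day 7. A gain on miR-151a-3p without overlap was seen for 13.6% of miRNAs on day 5, for 11.5% on day 7, both against day 3, and for 9.89% between days 5 and 7. Each of these gains had an exact permutation p = 0.1, the smallest possible. Over all 7 pairs of relatives, 21 such differences were computed, and none could pass a threshold of 0.05 at 3 libraries a day.

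No change in the proportion of the 2 strands passed the test for either hairpin between day 3 and a later day. The 5p minus 3p difference of miR-28 had means of −2.61 ± 0.08, −2.49 ± 0.05 and −2.68 ± 0.05 (SD, n = 3) in order of day, and in limma over all hairpins it differed from day 3 by −0.07 (−0.27 to 0.13, adjusted p = 0.526) on day 7 and by 0.12 (−0.09 to 0.34, adjusted p = 0.404) on day 5. For miR-151a the difference was 0.61 in each day 3 library (SD 0.00), 0.38 ± 0.06 on day 5 and 0.50 ± 0.03 on day 7. Both later days lay below day 3 without overlap, but the changes of −0.23 (−0.44 to −0.03, adjusted p = 0.124) and −0.11 (−0.29 to 0.07, adjusted p = 0.305) did not pass the threshold. Of the hairpins with both strands tested, 38.1% of 139 passed on day 7 and 8.33% of 132 on day 5. How many of these hairpins had no overlap was not counted.

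miR-151b, which is known as a near-copy of miR-151a-5p from another locus (MIR151B, chr14:100109419-100109514, minus strand), was much lower. Reads could have been assigned to either name, so its level is uncertain. Its log2 values were 7.71, 7.71 and 7.31 on day 3, 7.62, 7.75 and 7.66 on day 5, and 8.52, 8.53 and 8.56 on day 7. The day 7 libraries were above all others, by 0.96 against day 3 (adjusted p = 0.000643) and by 0.86 against day 5 (adjusted p = 0.000601). On library totals the rise from day 3 to day 7 was 0.46 (adjusted p = 0.00219). Within libraries miR-151b gained 0.24 on miR-151a-5p by day 5 and 0.42 by day 7, without overlap between any of the days.

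**Figure D3:**
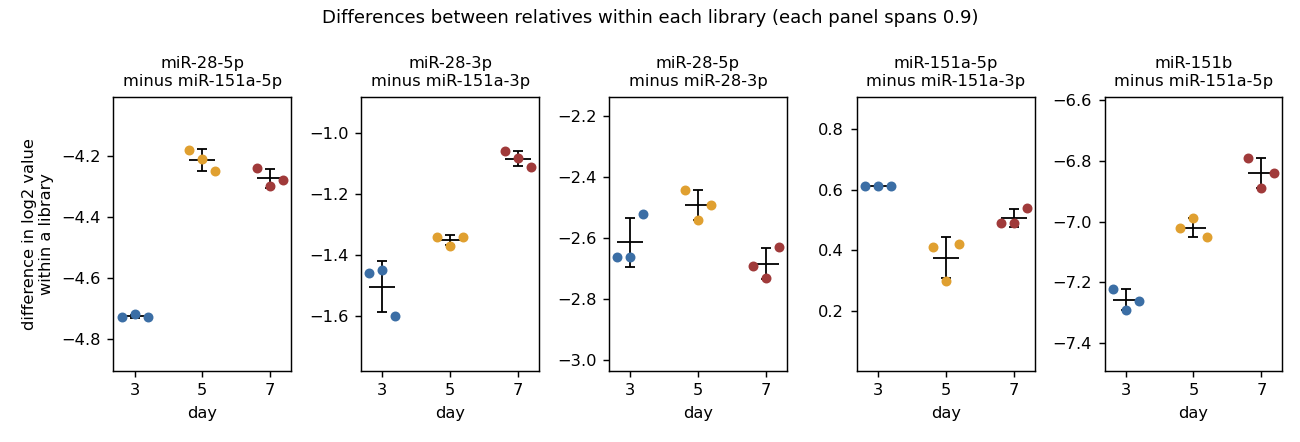
Difference in log2 value within a library (y axis, each panel spanning 0.9) by day (x axis) for 5 pairs of relatives; points are libraries, black marks the mean ± SD (n = 3). miR-28-5p lay 0.51 higher against miR-151a-5p on day 5 than on day 3 and 0.45 higher on day 7, while miR-28-3p against miR-151a-3p moved by 0.15 and then by 0.26.

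LPP, the host gene of miR-28, was more than 2-fold higher on day 5 than on day 3 in the whole transcriptome libraries. Its normalized value was 3529, 3295 and 2974 in day 3 replicates 1 to 3 and 7103, 7240 and 7370 on day 5, from 2098 to 7117 reads per library. The groups were far apart, with every day 5 library above every day 3 library. The log2 fold change on the log2(value + 1) scale was 1.15 (SE 0.09, 95% interval 0.93 to 1.37, limma, adjusted p = 0.000281). Of the 20129 genes tested, 56.9% passed the threshold, 29.3% of all tested being higher and 27.6% lower on day 5, and the median change was 0.01 (quartiles −0.49 and 0.53). LPP ranked 1540 from the highest, so that 92.3% of the genes tested had a smaller value.

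PTK2, the host of miR-151a, differed by less. Its normalized values were 8670, 8327 and 9430 on day 3 and 9854, 9858 and 10372 on day 5, without overlap. The difference of 0.19 (SE 0.08, −0.01 to 0.39) missed the threshold in limma (adjusted p = 0.0958) but passed with edgeR on the recovered reads (0.18, adjusted p = 0.0324), with DESeq2 (0.19, adjusted p = 0.0355), on read totals (0.26, adjusted p = 0.0199, where 31.8% of genes were called higher) and in limma without day 3 replicate 3 (0.24, adjusted p = 0.0400). Day 5 libraries all above day 3 were seen for 33.4% of the genes tested. Within libraries LPP gained 0.96 on PTK2 (log2 scale, exact permutation p = 0.1, the smallest possible).

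Set side by side between days 3 and 5, the host mRNAs differed by 1.15 for LPP and 0.19 for PTK2, and their miRNAs by 0.37 (miR-28-5p), 0.25 (miR-28-3p), −0.14 (miR-151a-5p) and 0.10 (miR-151a-3p) on their own scale. The assays were normalized separately, so no test was made between host and miRNA. TENM4, the host of miR-708, had 2, 7 and 3 reads on day 3 and 4, 7 and 6 on day 5 and was too low for the main fit. In limma with no filter it did not pass (0.70, adjusted p = 0.199). The whole transcriptome table also lists the hairpin genes themselves. MIR28 had 2, 2 and 5 reads on day 3 and 7, 1 and 7 on day 5, and MIR151A had 14, 11 and 2 and then 15, 14 and 12. These rows lie inside host introns on the same strand, where reads of hairpin and host cannot be told apart.

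**Figure D4:**
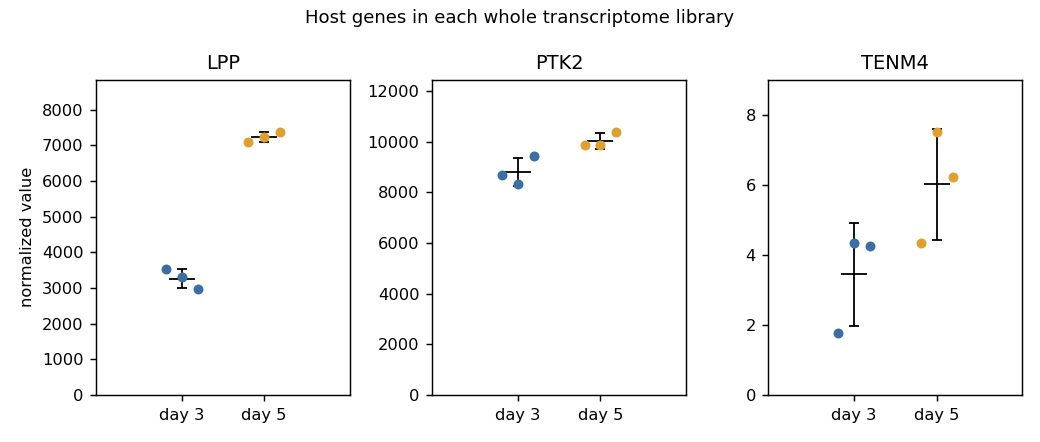
Normalized value (y axis, from 0, one scale per panel) of the 3 host genes in the 6 whole transcriptome libraries by day; points are libraries, black marks the mean ± SD (n = 3). LPP separates widely (3266 ± 278 on day 3, 7238 ± 133 on day 5), PTK2 narrowly (8809 ± 565 and 10028 ± 298), and TENM4 stays below 8 in every library.

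The whole transcriptome libraries held 27470978 to 56689369 recovered reads, and day 3 replicate 3 was the shallowest. Among epithelial markers EPCAM differed by 0.00 (adjusted p = 0.982), whereas CDH1 (2.63), KRT8 (1.05) and KRT18 (0.93), all abundant, were higher on day 5. Of the markers of other cells, VIM differed by −0.10 (adjusted p = 0.608) with a mean of 312 to 330, and the leukocyte gene PTPRC was listed at 0 to 2.14. In bulk RNA, fewer cells of a kind and less RNA per cell cannot be told apart.

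Of the zyxin family, to which LPP belongs, 5 of 6 genes were higher on day 5 and none lower in limma, with a median change of 0.83 and all 6 fold changes above 0. Of all genes tested, 29.3% were higher and 27.6% lower. The family count and median include LPP itself, whose rise is given above. The largest rise was that of ZYX, zyxin itself, from a mean normalized value of 1430 ± 297 to 3860 ± 44.6 (1.45, adjusted p = 0.000706). AJUBA was the member that did not pass, at 0.12. Of genes for proteins known to bind LPP or to work beside it, 7 of 8 were higher and 1 lower, beside the same shares of all genes, with a median of 0.96. The actin crosslinkers ACTN4 (7790 ± 1280 to 22600 ± 526, 1.55, adjusted p = 0.000356) and ACTN1 (1.19, adjusted p = 0.000551) rose most. PPP2R5C, a regulatory subunit of protein phosphatase 2A, was lower by −0.32 (adjusted p = 0.0179), a call lost without day 5 replicate 1.

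Many genes of FAK signalling, the pathway of PTK2, were higher on day 5. Of 24 genes, 23 passed the filter, 17 were higher, 1 was lower and 5 did not pass, with a median of 0.64, against 29.3% higher and 27.6% lower among all genes. The largest rises were those of GRB7, an adaptor that binds FAK (390 ± 71.1 to 1420 ± 50.3, 1.88, adjusted p = 0.000252), and TLN1, talin, which links integrins to actin (3620 ± 622 to 13100 ± 184, 1.87, adjusted p = 0.000258). The 1 gene that was lower, ARHGEF28, had a change of −0.33 (adjusted p = 0.0261), and −0.27 with adjusted p = 0.0869 on read totals. It also lost the call without day 3 replicate 1, day 3 replicate 2, day 5 replicate 1 or day 5 replicate 2.

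Genes described as targets of these miRNAs, listed from general knowledge, differed in both directions. Of 18, 16 passed the filter, 5 were higher, 8 lower and 3 did not pass, with a median of −0.41, against 29.3% higher and 27.6% lower among all genes. The largest rises were those of CCND1, cyclin D1 (10600 ± 1900 to 24700 ± 1250, 1.23, adjusted p = 0.000946), and CDKN1A, the cell cycle inhibitor p21 (0.93, adjusted p = 0.00141). The largest fall was that of ZEB2, a repressor of epithelial genes that was very low on both days (15.1 ± 2.06 to 4.95 ± 2.44, −1.53, adjusted p = 0.0117). ZEB2 passed the filter only through day 3 (12.8 to 16.7, against 2.14 to 6.51 on day 5). Its call, counted among the 8 lower, is therefore not read as a result. MAD2L1, a spindle checkpoint protein, followed (8260 ± 244 to 3520 ± 228, −1.23, adjusted p = 0.000222). NME1, a nucleoside diphosphate kinase, was next at −1.11 (adjusted p = 0.000297) and was added here after its value was seen.

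Around the host genes on the chromosomes, 6 of 8 neighbours were listed and all 6 passed the filter, of which 3 were higher and 2 lower (median 0.55), beside 56.9% of all genes called in either direction. BCL6, a transcriptional repressor beside LPP, rose from 275 ± 20.5 to 969 ± 40.4 (1.81, adjusted p = 0.000146). DENND3, beside PTK2, rose by 1.12 (adjusted p = 0.000295). LPP-AS2, an RNA antisense to LPP, was lower while LPP was higher (80.2 ± 20.6 to 42.5 ± 12.7, −0.92, adjusted p = 0.0343), and NARS2, near TENM4, was lower by −0.51 (adjusted p = 0.0129). Without day 3 replicate 1, day 3 replicate 3 or day 5 replicate 2, 1 of the 2 lower calls remained. AGO2, the Argonaute gene beside PTK2 and the protein the study was built on, had the third largest change of the neighbours, 0.93 (adjusted p = 0.000655), and was named for that role after its value was seen.

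**Figure D5:**
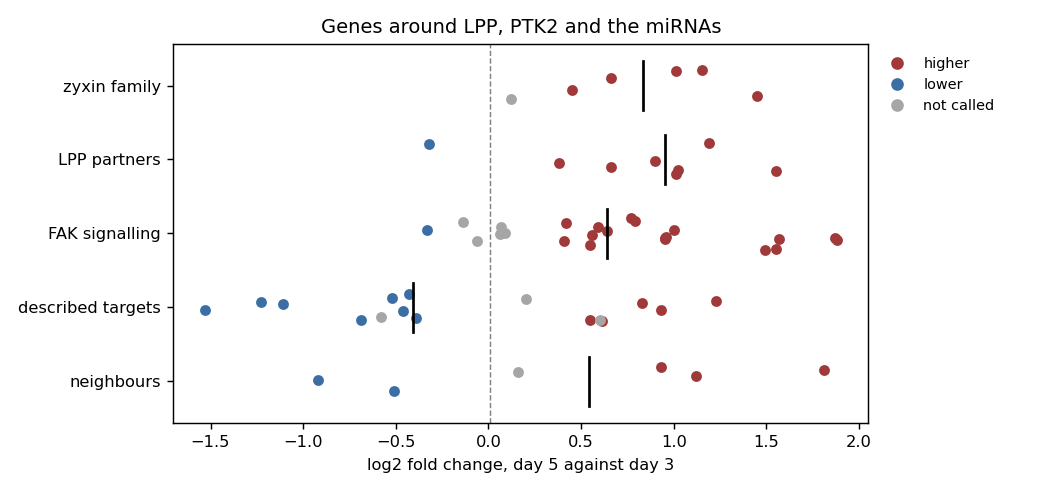
Log2 fold change, day 5 against day 3 (x axis), of each tested gene in 5 lists (y axis); points are genes coloured by the limma call, vertical bars are list medians and the dashed line is the median of all genes tested (0.01). The zyxin family, the LPP partners and the FAK signalling genes lie mostly to the right, and the described targets on both sides.

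Matches to 2 of the seeds in 3′UTRs were counted as a description, without a test. The search used the reverse complement of the seed in the mRNA strand of the canonical GENCODE 3′UTR of 13094 tested genes. AGCTCCT, the match to the seed of miR-708-5p and miR-3139, occurred in 2043 genes (15.6%), whose median change on day 5 was 0.32 against 0.12 for all genes with a 3′UTR and 0.08 for the 11051 without a match. As background, miR-28-5p is usually placed in that seed family too. Its sequence was not found here, so no search was made for it by name. Of the genes with a match 49.3% were called higher and 19.5% lower, against 35.5% and 29.6% of those without. Among the 374 genes with at least 2 matches the median was 0.39. The 2043 genes with a match also had longer 3′UTRs, with a median of 2898 bases, and those with at least 2 matches 4227. The median length was 1287 for all genes with a 3′UTR and 1078 for those without a match. The part of length in these changes was not tested.

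ATCTAGT, the match to the seed of miR-28-3p, occurred in 1008 genes (7.70%). Their median change was 0.04, and their median 3′UTR length was 3540 bases. Of them 34.9% were called higher, against 37.9% of the 12086 genes without this match, and 302 of 1008 were called lower, against 3368 of 12086 (27.9%). The 117 genes with at least 2 matches had a median of −0.01, with 33.3% higher and 35.0% lower. The 3′UTR of LPP itself, of 16192 bases, held 2 such matches and none of AGCTCCT, and that of PTK2, of 1566 bases, held neither. The matches in LPP are shown because they lie in the mRNA of the gene that hosts the miRNA. They are given with 11 bases on either side, on the plus strand of GRCh38, with the match in capitals.
LPP 3′UTR base 5099, chr3:188879567-188879595: atttgtgactgATCTAGTtttctcagctg
LPP 3′UTR base 11990, chr3:188886458-188886486: ttctcagaattATCTAGTatgcctgagta
This was 0.124 matches per kilobase in LPP, against 0.0444 over all 3′UTRs searched. A match is a description and not a bound site.

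The miRNAs whose pattern over the 9 libraries lay closest to each member were found by the root mean square difference of centred log2 values. miR-381-3p was closest to miR-28-5p (0.0558), followed by miR-34a-5p (0.0600). For miR-28-3p the closest were miR-375-3p (0.0541) and miR-182-5p (0.0793), for miR-151a-5p they were miR-125a-5p (0.0301) and miR-27b-3p (0.0404), and for miR-151a-3p they were miR-10a-5p (0.0247) and miR-101-3p (0.0393). Members were left out of this search, so the other strand of a hairpin could not appear in it. Over the 6 whole transcriptome libraries DENND3 (0.0204) and ATXN1 (0.0257) were closest to LPP, and HINFP (0.0241) and EPS8 (0.0275) to PTK2. The libraries share their scaling, so these distances describe likeness and carry no test.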

How the data were processed

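The deposited small RNA tables hold log2 values, which the authors made by trimming with Cutadapt, mapping to mature and hairpin miRNA sequences (GRCh37) and normalization named as TMM with edgeR. The transformation is not given in the sources used here. The study's methods state the sequencing yield of these libraries only as a range over all of them, and neither the yield of a single library nor its reads on miRNAs could be read from the values. The deposited whole transcriptome signal is a normalized value per gene, which came, by the study's methods, from CLC Genomics Workbench with reads placed on hg38 genes by strand. All values (100%, tolerance 0.01) were whole multiples of 1 read, so reads were recovered; they carry counting error only to the extent that molecules were independent. Submitters' processing notes name bcl2fastq, FastQC 0.11.8 and MultiQC 1.7. The deposited tables also hold 10 columns of the authors' own comparisons (means, log2 fold changes, standard errors or score statistics, p-values), which were not used. Those beside the whole transcriptome values have names that DESeq2 writes, such as baseMean and lfcSE. The study's methods name TMM in CLC Genomics Workbench instead, so the normalization of these values is uncertain.

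limma 3.58.1 (R 4.3.3) was fitted over all features to the log2 values, or to log2(value + 1), for features of at least 10 in at least 3 libraries compared; p-values were adjusted by Benjamini-Hochberg with a threshold of 0.05. Day 7 against day 5 came from a fit over all 9 libraries, the others from their own 6. Fold changes on log2(value + 1) understate changes of low genes. Strand balance was tested by limma on the 5p minus 3p difference, and shares and other within-library differences by two-sided exact permutation tests. edgeR 4.0.16 and DESeq2 1.42.0 were run on the recovered reads. Other steps used Python 3.11.15, scipy 1.17.1, pandas 2.3.3, numpy 2.4.6 and matplotlib 3.10.9. The limma fits against day 3 were tested on simulated data with 2-fold changes, and the fit over all 9 libraries was not. In each comparison 193 of 200 changed miRNAs (96.5%) and 39 of 40 changed hairpins (97.5%) were called. For genes it was 120 of 192 (62.5%), so a gene that was not called can still have changed. False calls were 7 for miRNAs and 1 for hairpins on day 7, and 3 and 3 on day 5. For genes they were 7. Changes smaller than 2-fold and shifts shared by a whole library were not simulated.

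All members were named, with their relatives by seed or hairpin and TENM4, and of each gene list the 2 largest rises and the 2 largest falls past the threshold without overlap. For likeness, the closest tested features by the root mean square difference were named, with the members left out. Members and lists were chosen with earlier results of these data known. Alternatives were library totals, median centring, no filter, a pseudocount of 0.1, a replicate block, all 9 libraries in one fit, and leaving out each library. Differences between hairpins within a library, LPP against PTK2 and list counts under other settings were chosen after seeing the data.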

Additional observations from a re-analysis of the deposited data

How the results depend on the processing

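On library totals, the day 7 against day 3 difference was 0.04 for miR-151a-5p and 0.15 for miR-151a-3p, that of day 7 against day 5 was 0.13 for miR-28-5p and 0.06 for miR-151a-3p, none past the threshold, and by construction this scale sets each total equal. With no filter on low values miR-151a-5p kept 0.54 between days 3 and 7 (adjusted p = 0.0662), where more miRNAs are tested. miR-28-5p between days 3 and 5 passed on library totals (0.36), with centring (0.42) and with all 9 libraries in one fit (0.37). PTK2 passed on read totals (0.26), with edgeR (0.18) and with DESeq2 (0.19). It ranged from 0.15 to 0.24 when each library was left out, and miR-151a-3p between days 3 and 5 from −0.03, without day 3 replicate 3, to 0.18. LPP passed under every setting run, at 1.09 to 1.22.

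The number of miRNAs past the threshold between days 3 and 5 was 80, but 135 on library totals, 124 with centring, 50 with no filter, and 37 to 122 with a library left out (122 without day 3 replicate 3). Between days 5 and 7 it was 251, and 164 with no filter. For strand balance it was 53 between days 3 and 7, 25 with no filter and 28 to 52 with a library left out, and 11 between days 3 and 5, 2 with no filter and 5 to 19 with a library left out. Lower calls in 3 lists were lost in part: LPP partners went from 1 to 0 with no filter, under the replicate block and, at a range of 0 to 1, with a library left out. FAK signalling did so under those settings and on read totals. Neighbours went from 2 to 0 with no filter and ranged from 1 to 2 with a library left out. Higher calls in the zyxin family went from 5 to 4 with no filter. They did so too without day 3 replicate 1, day 3 replicate 2 or day 5 replicate 1. Those of the LPP partners went from 7 to 6 with no filter and without day 5 replicate 3. Those of FAK signalling went from 17 to 16 with no filter. The cause of these changes was not tested.

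Replicate numbers are shared between days. Deviations of same-numbered libraries correlated at −0.0767 to 0.116 in small RNA and −0.0112 to 0.0343 in the whole transcriptome, and own-number libraries were closest for 6 of 6 libraries between days 3 and 5 in small RNA but for 3, 1 and 3 of 6 in the other comparisons, so the numbers were not taken to pair the samples. With the replicate block miR-28-5p between days 3 and 5 was 0.37 (adjusted p = 0.0882), LPP 1.15 (adjusted p = 0.00448) and PTK2 0.19 (adjusted p = 0.142), and 302, 71 and 254 miRNAs passed for day 7 against day 3, day 5 against day 3 and day 7 against day 5, beside 10533 genes. The reads behind each small RNA value are not known, so counting error is not given for miR-708-5p or other low miRNAs.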
